A study of Rattus norvegicus with 6 samples.

Results

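The adhesive and matricellular glycoproteins of the extracellular matrix were followed in fibrotic rat liver as a set of 10 genes: Fn1, Tnc, Postn, Thbs1, Thbs2, Sparc, Nid1, Lamb1, Lamc1 and Matn4. The set was chosen by name, with earlier results of these data known. A probe belonged to a gene when its accession was listed for that gene in RefSeq, and on this basis 8 of the 10 genes had a probe, out of 15443 genes named on the array. They had 10 probes of the 30367 on the array, with 2 each for Fn1 and Lamc1. Nid1 and Lamb1 were not analysed here.

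Fibrotic livers came from 3 rats whose bile duct had been ligated, which stops bile flow and scars the liver, and normal livers came from 3 other rats. Total RNA from blocks of liver tissue was labelled with Cy3 and hybridised in 1 colour, 1 Agilent array per animal. The strain, sex and age of the rats, the time after ligation and whether the normal rats had a sham operation are not given in the sources used here. The p-values set the difference between the groups against the spread within the groups, among these 6 animals as processed together. A block holds every cell type of the liver, so a difference in the number of cells of a type and a difference in RNA per cell cannot be told apart.

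Adhesive glycoproteins join cells to the matrix: fibronectin is bound by integrins and assembled into fibrils, and laminins polymerise into the sheet of the basement membrane, to which nidogen ties the collagen IV network. Matricellular proteins such as tenascin C, periostin, thrombospondins and SPARC are secreted into the matrix but act mainly on cell adhesion, growth factor activity and collagen assembly, and are typically low in resting adult tissue and high in healing wounds. In liver, hepatocytes secrete plasma fibronectin into the blood, while activated stellate cells and portal fibroblasts are known sources of scar matrix.

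Upstream sequence is shown for 3 of the genes whose signal differed between the groups, because TGF-beta, a main inducer of scar matrix, acts through SMAD proteins that bind a short element with the core CAGAC. Each run is the 250 bases before the RefSeq gene start on GRCr8, written 5′ to 3′ on the gene's strand, with capitals marking CAGAC, its reverse complement GTCTG, and TATAAA, the TATA box core.
Lamc1, chr13:68051987-68052236, minus strand: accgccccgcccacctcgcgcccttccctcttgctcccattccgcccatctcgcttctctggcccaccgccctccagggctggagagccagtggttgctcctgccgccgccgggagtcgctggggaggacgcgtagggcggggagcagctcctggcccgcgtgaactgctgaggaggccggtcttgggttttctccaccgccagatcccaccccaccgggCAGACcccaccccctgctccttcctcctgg
Sparc, chr10:40038817-40039066, minus strand: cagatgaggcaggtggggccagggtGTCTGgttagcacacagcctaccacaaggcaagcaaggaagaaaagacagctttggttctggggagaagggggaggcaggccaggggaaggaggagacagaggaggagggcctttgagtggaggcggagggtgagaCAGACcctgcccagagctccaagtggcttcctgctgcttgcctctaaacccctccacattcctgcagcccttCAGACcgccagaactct
Postn, chr2:140677811-140678060, plus strand: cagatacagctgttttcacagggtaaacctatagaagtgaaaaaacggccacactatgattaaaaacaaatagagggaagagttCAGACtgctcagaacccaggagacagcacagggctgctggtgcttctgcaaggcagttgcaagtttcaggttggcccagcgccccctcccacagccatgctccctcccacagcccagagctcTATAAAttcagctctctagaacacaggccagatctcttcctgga
The RefSeq table held upstream sequence for 7 of the 10 genes. CAGAC on either strand was found in 4 of these 7, once each in Lamc1, Postn and Tnc and 3 times in Sparc, against 42.9% of all 33469 upstream sequences of this length. TATAAA on either strand was found in 2 of the 7, Postn and Tnc, against 12.9% of all. The motifs were chosen after the expression values had been seen. A match of these letters is a description and not a binding site.

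The laminin chain, SPARC, periostin and matrilin 4 signals were higher in fibrotic livers, while the fibronectin signals were not called different and the tenascin C and thrombospondin 1 signals were mostly not well above background. Testing required a probe to be well above background on every array of 1 group or both and to have values on 2 or more arrays per group, and calls were made at an adjusted p under 0.05 in limma. Spots flagged in the files as non-uniform or as population outliers are called marked spots. With these left out, 4 of 5 tested probes of the set were called higher and 0 lower, against 15.2% of all 12628 tested probes called higher and 4.83% called lower. With the marked spots kept, 5 of 8 tested probes were called higher and 0 lower, against 12.4% and 6.79% of 19731. Matn4 and Postn entered these counts only through the fibrosis arrays, where they are high. When background had to be passed on all arrays, 2 of 3 probes of the set were called, against 1605 of 10458 over all probes. Both called probes were of Lamc1, so by gene 1 of 2 was higher, against 849 of 6373 over all genes. With marked spots kept 3 of 6 probes were called, against 2836 of 17536, and these were the Lamc1 probes and Sparc. Both versions are given because 74 of the 162 spots of the set were marked, among them 10 of the 12 Sparc spots and 13 of the 18 Fn1 spots, so that Sparc and Fn1 could be tested only with marked spots kept. With 1 probe per gene, the highest one, and marked spots kept, 4 of 6 genes were called higher and the median log2 difference was 1.50, against 14.7% called higher and a median of -0.07 over all 10864 genes tested. Left out, the marked spots gave 3 of 4 genes higher with a median of 1.83, against 17.3% called higher, 4.87% called lower and a median of 0.03 over 7439 genes. Processed signals below are background-subtracted and are given per array with marked spots kept, and log2 differences are taken after subtracting each array's 75th percentile. Of the 19731 probes tested with marked spots kept, 19.1% had every fibrosis array above every normal array and 19.3% had every one below. Statements below that the groups did not overlap are to be read beside these shares.

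**Figure D1:**
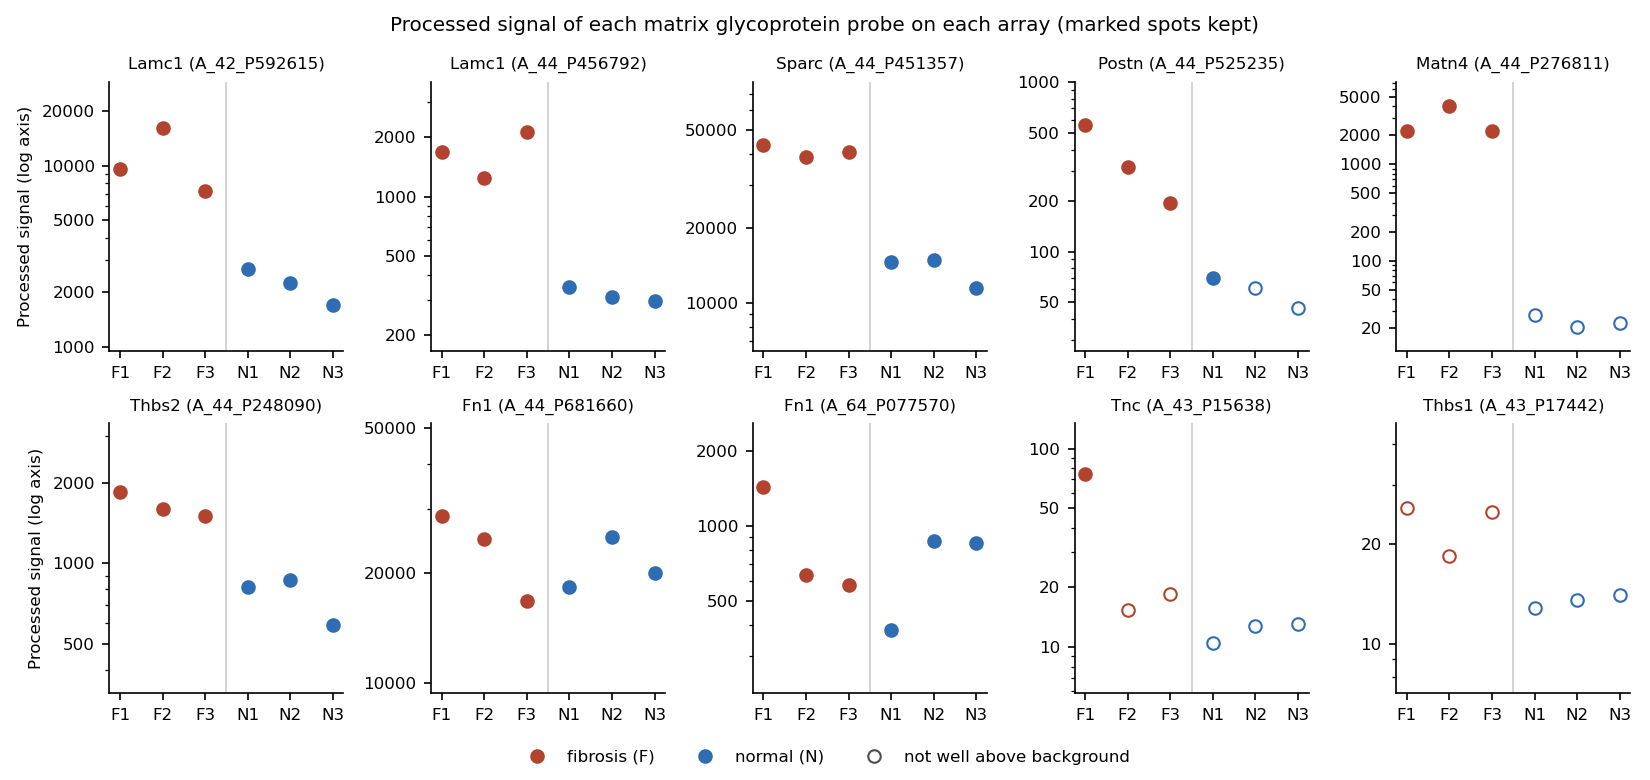
Processed signal (log axis) of each of the 10 matrix glycoprotein probes on the 3 fibrosis arrays (F) and the 3 normal arrays (N), 1 point per array, open where the probe was not well above background. All fibrosis points lie above all normal points except for the Fn1 probes, where the groups mix, and for Tnc and Thbs1 all but 1 point are open. These signals are not scaled between arrays, and the fibrosis arrays were brighter as a whole. After scaling, the groups overlapped for Tnc too, and for Thbs1 they were only 0.02 apart on the log2 scale.

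The 6 arrays shared 1 slide and 1 scan. Fibrosis array 1 shared the upper slide row with the 3 normal arrays, while fibrosis arrays 2 and 3 made up the lower row. A fit with slide row as a term therefore compares fibrosis array 1 alone with the normal arrays, and assumes that this 1 array varies like the others. Processed signals had a 75th percentile of 5453 ± 833 on fibrosis arrays and 4016 ± 330 on normal arrays (SD, n = 3 each). The small number of arrays is one limit on the precision of these values. The share of marked spots was 18.8% to 33.0% on fibrosis arrays and 24.0% to 35.2% on normal arrays. The tissue label was checked with hepatocyte markers such as albumin, and 10 of 10 were well above background, with a summed level of 87.8 to 112 in fibrotic livers and 139 to 150 in normal livers, as signal relative to each array's 75th percentile. Hepatocyte markers had 0 of 10 genes called with marked spots kept, with a median log2 difference of -0.72. Among them, Ttr was called lower in 8 other settings and Serpina1 in 3.

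Lamc1 encodes the laminin gamma 1 chain, which is part of most laminin trimers of basement membranes. Its probe A_42_P592615, printed as 10 spots per array, had a mean processed signal of 9588, 16276 and 7248 in fibrotic livers, against 2676, 2255 and 1695 in normal livers. The groups did not overlap, and fibrosis array 2 stood above the other fibrosis arrays. The log2 difference with marked spots kept was 1.84 ± 0.37 (SE, n = 3 each), which is 3.57-fold, with an adjusted p of 0.0115 in limma. With them left out it was 1.60 ± 0.36 over 2 fibrosis and 3 normal arrays, with an adjusted p of 0.0199, because all 10 spots on fibrosis array 2 were marked. The call was lost without normal array 2 (1.43, adjusted p = 0.0724), without normal array 3 (1.48, adjusted p = 0.0797) and with slide row as a term (1.66, adjusted p = 0.103). It was also lost, marked spots kept, without normal array 3 (1.71, adjusted p = 0.0568) and with slide row as a term (1.47, adjusted p = 0.187).

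The other Lamc1 probe, A_44_P456792, had 1675, 1246 and 2114 in fibrotic livers, against 350, 310 and 298 in normal livers. The groups again did not overlap, but here fibrosis array 3 was the highest and array 2 the lowest of the fibrotic livers, so the probes did not rank these animals alike. The log2 difference was 1.93 ± 0.27 with marked spots kept (SE, n = 3 each, 3.80-fold, adjusted p = 0.00210 in limma) and 1.70 ± 0.28 with them left out (2 fibrosis and 3 normal arrays, adjusted p = 0.00534). The upper slide row alone, fibrosis array 1 against the normal mean, gave 1.72, with an adjusted p of 0.0523 with marked spots kept and 0.0404 with them left out.

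The 10 repeated spots of A_42_P592615 give the spread between spots of 1 array. They share 1 RNA sample and 1 hybridisation, so they do not give the technical spread between arrays and are not replicates of a group. Within an array their log2 signals had an SD between 0.11 and 0.22, while the array means had an SD of 0.70 among fibrotic livers and 0.31 among normal livers (log2 relative to the 75th percentile, n = 3 each). On fibrosis array 2 the single spots ran between 14125 and 18395, above every spot of fibrosis array 1, which ran between 8545 and 10630. All of the spots on the fibrosis arrays were above all of those on the normal arrays, where the highest spot was 3102.

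**Figure D2:**
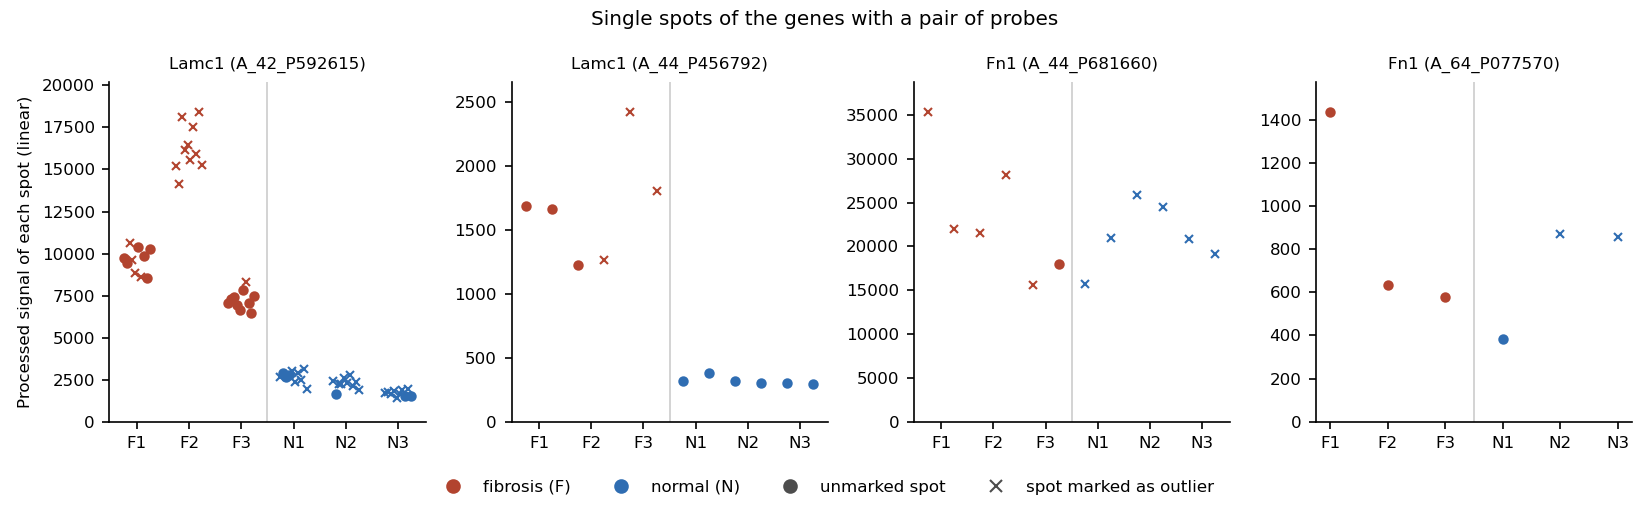
Processed signal (linear axis) of each single spot of the Lamc1 and Fn1 probes on fibrosis (F) and normal (N) arrays, with crosses for spots marked as outliers. Lamc1 spots separate the groups in both probes, with array 2 highest in one and array 3 in the other, and Fn1 spots do not.

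Sparc encodes SPARC, also called osteonectin, a collagen-binding matricellular protein. Its probe A_44_P451357 had 43476, 38989 and 40643 in fibrotic livers, against 14620, 14964 and 11486 in normal livers. The groups did not overlap, and the fibrotic livers lay close together, with a range of 0.25 on the log2 scale. The log2 difference was 1.16 ± 0.23 with marked spots kept (SE, n = 3 each, 2.23-fold, adjusted p = 0.00983 in limma). The call was lost without normal array 3 (1.08, adjusted p = 0.0647) and with slide row as a term (1.01, adjusted p = 0.148). Of the 12 spots behind these values, 10 were marked.

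Postn encodes periostin, a matricellular protein that binds integrins and takes part in collagen crosslinking. Its probe A_44_P525235 had 561, 315 and 195 in fibrotic livers, against 70.2, 60.9 and 46.3 in normal livers. The groups did not overlap, the fibrotic livers spread over 1.21 log2 units, and only normal array 1 among the normal arrays was counted as well above background, with 1 of its 2 spots. None of the 12 spots was marked, and the log2 difference was 2.06 ± 0.35 (SE, n = 3 each, 4.16-fold, adjusted p = 0.00446 in limma). Setting the normal arrays no lower than their lowest signal well above background gave 3.70-fold. The call was kept in each of the 6 fits that left out 1 array, and fibrosis array 1 alone against the normal arrays gave 2.61 (adjusted p = 0.0141 with slide row as a term). The normexp background correction, which models the background instead of subtracting it, gave 1.06 (adjusted p = 0.0156).

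Matn4 encodes matrilin 4, an adaptor protein of filamentous networks in the matrix of cartilage and other tissues. Its probe A_44_P276811 had 2192, 3991 and 2199 in fibrotic livers, against 27.6, 20.8 and 22.9 in normal livers. It was well above background on all 3 fibrosis arrays and on 0 normal arrays, so only a lower bound of its fold can be given. This bound sets the mean of the fibrosis arrays against the lowest signal that counted as well above background on each normal array. It was at least 36.8-fold higher over the 2 fibrosis arrays with unmarked spots and at least 33.6-fold higher over all 3 with marked spots kept. The adjusted p, 0.000131 and 4.9e-05 in limma, belong to the fits on the values as measured. The bounds themselves were not tested. The bound holds for the processed signals only: with normexp the fitted log2 difference, 4.00 with marked spots kept and 4.20 with them left out, was below it.

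Thbs2 encodes thrombospondin 2, a matricellular inhibitor of angiogenesis. Its probe A_44_P248090 had 1851, 1593 and 1498 in fibrotic livers, against 814, 863 and 587 in normal livers. All 3 fibrotic livers were above all normal livers, which was so for 19.1% of the 19731 probes, but the difference did not pass the test. It was 0.70 ± 0.23 on the log2 scale with marked spots kept (95% interval 0.16 to 1.23, n = 3 each, adjusted p = 0.0747 in limma) and 0.73 ± 0.35 with them left out (2 arrays each, adjusted p = 0.209). With array weights, which count arrays by how well they fit their group, and marked spots kept, it passed at 0.70 (adjusted p = 0.0174).

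Fn1 encodes fibronectin, and both of its probes were well above background on all arrays. A_44_P681660 had 28658, 24844 and 16808 in fibrotic livers, against 18329, 25187 and 19978 in normal livers. A_64_P077570, with 1 spot per array, had 1434, 636 and 580 in fibrotic livers, against 381, 869 and 854 in normal livers. The groups overlapped for both probes. The log2 differences with marked spots kept were -0.32 ± 0.26 (95% interval -0.91 to 0.27, adjusted p = 0.439 in limma) for A_44_P681660 and -0.13 ± 0.40 (95% interval -1.05 to 0.78, adjusted p = 0.855) for A_64_P077570, with n = 3 each. The sign for A_64_P077570 turned positive in 7 of its 16 fits with another setting, and that for A_44_P681660 in 1 of 17.

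Tnc encodes tenascin C, a matricellular protein of wounds and fibrosis, and its probe A_43_P15638 was dim and detected in only 1 fibrotic liver. It had 74.3, 15.3 and 18.6 in fibrotic livers, against 10.5, 12.7 and 13.2 in normal livers, and only fibrosis array 1 was well above background. Relative to the 75th percentile the groups overlapped. The probe was tested only without a filter on dim probes, where the log2 difference was 0.76 ± 0.49 (SE, n = 3 each, adjusted p = 0.498 in limma), and no fold is given. Thbs1 encodes thrombospondin 1, an activator of latent TGF-beta, and its probe A_43_P17442 had 25.6, 18.4 and 24.9 in fibrotic livers, against 12.8, 13.6 and 14.1 in normal livers. None of the 6 arrays had it well above background, and without the filter the log2 difference was 0.30 ± 0.29 (SE, n = 3 each, adjusted p = 0.705).

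**Figure D3:**
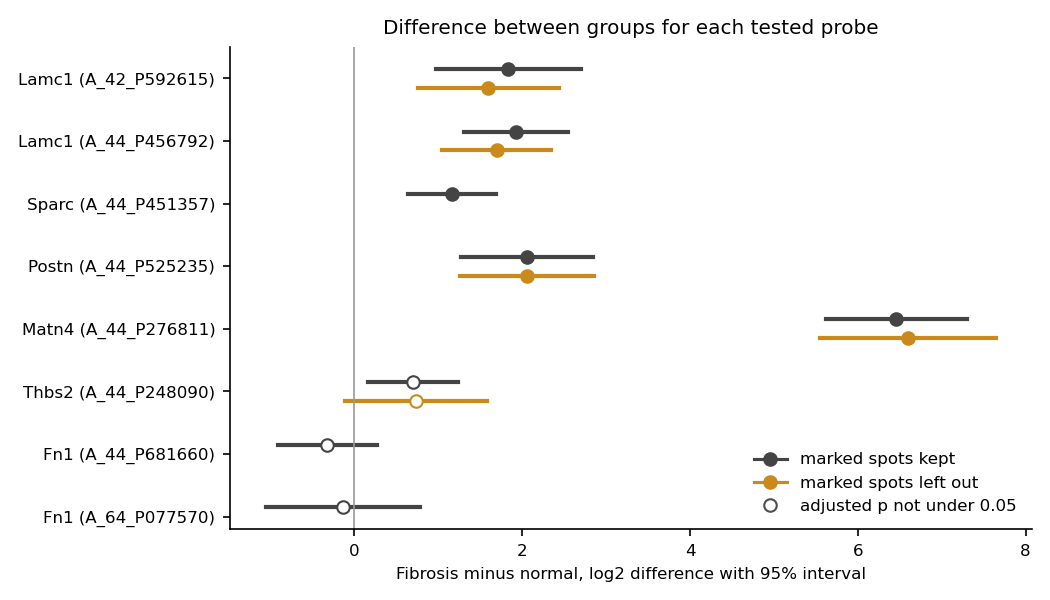
Log2 difference, fibrosis minus normal, with 95% interval, for the probes tested with marked spots kept (dark) and left out (orange), open where the adjusted p was not under 0.05. The intervals of Lamc1, Sparc, Postn and Matn4 lie above 0 and those of both Fn1 probes hold 0, and the size for Matn4 rests on normal signals at background level. For Thbs2, not called in either version, the interval lies above 0 with marked spots kept (0.16 to 1.23) and holds 0 with them left out (-0.11 to 1.58).

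The fibrotic livers did not share one order across the set. On the log2 scale relative to the 75th percentile and with marked spots kept, fibrosis array 1 was the highest of the 3 for Postn, Fn1 probe A_64_P077570 and Tnc, for which it was the only one well above background. Fibrosis array 2 was the highest for Matn4, Sparc, Thbs2, Lamc1 probe A_42_P592615 and Fn1 probe A_44_P681660. Against the normal mean, Postn was higher by 2.61, 2.17 and 1.40 on arrays 1, 2 and 3. For Matn4 and Tnc no such difference is given, because no normal array was well above background.

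**Figure D4:**
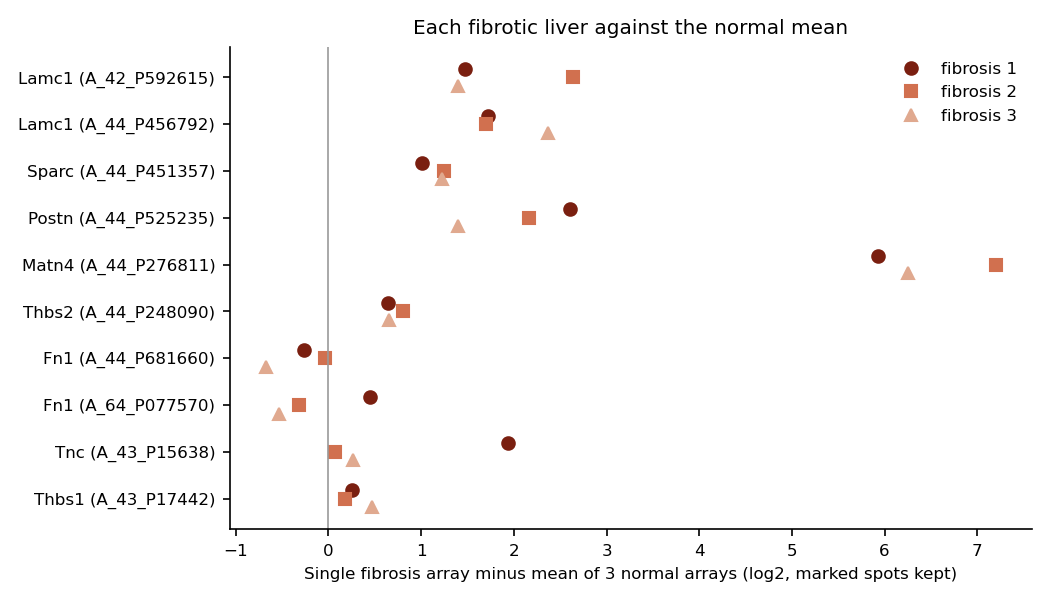
Log2 level of each probe on each fibrosis array minus the mean of the 3 normal arrays, marked spots kept, 1 symbol per fibrotic liver. The order of the 3 arrays changes between genes, for example between Postn and the Lamc1 probes, and for Matn4, Tnc and Thbs1 the normal mean is at background level, so their distance from 0 is not a measured difference.

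The relatives of the set were read from lists of gene families and partners, with marked spots kept and 1 probe per gene. These lists, too, were chosen with earlier results of these data known. Of the matricellular relatives 8 of 15 tested genes rose and 1 fell (median log2 difference 1.24), against 14.7% of all genes higher and 7.62% lower. Spp1, which encodes osteopontin, rose by 5.05 ± 0.41 (adjusted p = 0.000147 in limma), and Ccn2, the connective tissue growth factor gene, rose by 4.30 ± 0.43 (adjusted p = 0.000421). Ccn3, of the same family, was at least 5.21-fold higher, with 0 normal arrays above background. The fit on its values as measured, not the bound, passed (adjusted p = 0.00105 in limma). With normexp the fitted log2 difference was 1.69, below that bound. Tgfbi, an integrin ligand, fell by 0.81 (adjusted p = 0.0420). With marked spots left out, 5 of 10 rose and 0 fell, against 17.3% of all genes higher and 4.87% lower. The counts of the lists below are to be read beside these same shares.

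Among relatives of fibronectin and the matrilins, 5 of 9 tested genes rose and 1 fell (median 1.31). Fndc1, which holds fibronectin type III domains, was at least 13.7-fold higher, with 0 normal arrays above background. The fit on its values as measured, not the bound, passed (adjusted p = 0.000491 in limma). With normexp the fitted log2 difference was 2.78, below that bound. Efemp2, the fibulin 4 gene needed for elastic fibres, rose by 3.00 ± 0.27 (adjusted p = 0.000232 in limma). Fbln1, the fibulin 1 gene, rose by 2.80 ± 0.61 (adjusted p = 0.0155 in limma), which was 1.77 with normexp. Its call was lost with slide row as a term. Only 2 normal arrays had Fbln1 well above background, so it was tested only through the fibrosis arrays. Vtn, which encodes vitronectin, an adhesive plasma protein made by hepatocytes, fell by 0.88 (adjusted p = 0.0473). With marked spots left out, 2 of 4 rose.

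Laminin chains and other basement membrane genes had 8 of 11 tested members higher and 0 lower (median 1.73), and 5 of 8 higher with marked spots left out. Lama5, an alpha chain of epithelial and vascular laminins, rose by 3.96 ± 0.32 (adjusted p = 0.000145 in limma). Col15a1, a basement membrane zone collagen, rose by 3.56 ± 0.54 (adjusted p = 0.00297 in limma), a call lost with slide row as a term. Only 2 normal arrays had Col15a1 well above background, so it was tested only through the fibrosis arrays.

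Receptors of these glycoproteins had 5 of 16 tested genes higher and 1 lower (median 0.44), against 14.7% of all genes higher and 7.62% lower. With marked spots left out 3 of 11 were higher and 1 lower, against 17.3% and 4.87%. Itgb6, the beta chain of an epithelial integrin that binds fibronectin and activates latent TGF-beta, rose by 5.02 ± 0.34 (adjusted p = 8.38e-05 in limma). Cd44, a hyaluronan and osteopontin receptor, rose by 3.42 ± 0.27 (adjusted p = 0.000143), with its other tested probes at 1.83 and 2.89. Itga8, an integrin chain of myofibroblasts, rose by 3.14 ± 0.40 (adjusted p = 0.00122), but its other probe, at 1.20, did not pass (adjusted p = 0.169). Itga7, a laminin receptor chain, fell by 1.24 (adjusted p = 0.0438).

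Focal adhesion genes, which link integrins to actin, had 4 of 17 tested members higher and 1 lower (median 0.43), against 14.7% of all genes higher and 7.62% lower. With marked spots left out 2 of 11 were higher and 1 lower, against 17.3% and 4.87%, so these counts do not set the list apart from all genes. Flna, the actin crosslinker filamin A, rose by 2.78 ± 0.30 (adjusted p = 0.000546 in limma), and Fermt3, the kindlin of blood cells, rose by 1.62 ± 0.32 (adjusted p = 0.0104), a call lost with slide row as a term (adjusted p = 0.177). Src, a tyrosine kinase of adhesion sites, was at least 1.44-fold higher, with 0 normal arrays above background. The fit on its values as measured, not the bound, passed (adjusted p = 0.00126 in limma). Src was not called with normexp (0.45). Bcar1, an adaptor of the same sites, fell by 0.94 (adjusted p = 0.0479), and its other probe, at -0.28, did not pass (adjusted p = 0.619). Each of the 4 falls of these lists lost its call with E1A control scaling and without some single arrays. It was lost for Vtn in 12 of 17 other settings, Tgfbi in 10 of 17, Bcar1 in 21 of 35 and Itga7 in 16 of 35.

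Genes of the TGF-beta pathway (ligands, their binding proteins, receptors and SMADs among them) had 7 of 13 tested genes higher and 0 lower, with a median of 1.79. With marked spots left out 4 of 9 were higher, with a median of 0.26. Ltbp2, a microfibril protein of the latent TGF-beta binding protein family, rose by 3.95 ± 0.32 (adjusted p = 0.000146 in limma). Tgfb2, a ligand, rose by 3.36 ± 0.42 (adjusted p = 0.00115), while its other probe, at -0.62, did not pass (adjusted p = 0.114). Setting genes that were dim in a whole group at their bound moved the median of none of these 6 lists.

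**Figure D5:**
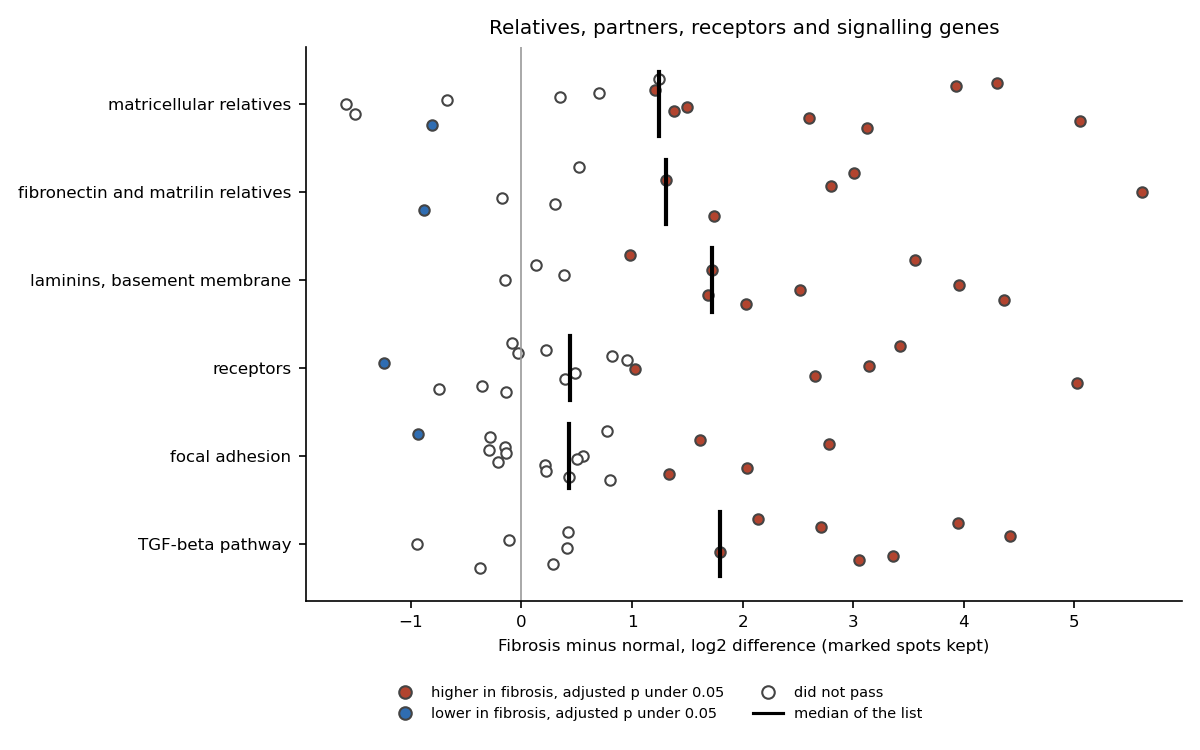
Log2 difference, fibrosis minus normal, of each tested gene (1 probe per gene, marked spots kept) in the 6 lists of relatives and partners, filled where the adjusted p was under 0.05, with a bar at each list's median. The medians run between 0.43 for focal adhesion genes and 1.79 for the TGF-beta pathway.

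Markers of scar-forming and duct cells were mostly called higher in fibrotic livers, against 14.7% of all genes. Of stellate cell and myofibroblast markers, 9 of 13 were higher and 0 lower with marked spots kept (median 2.04), and their summed level was 22.1 to 43.5 in fibrotic livers and 8.87 to 13.6 in normal livers. Of portal fibroblast and mesothelial markers 4 of 6 were higher (median 2.80), with sums of 8.98 to 11.4 in fibrotic livers and 2.48 to 2.82 in normal livers. Of cholangiocyte markers 8 of 9 were higher (median 5.05), with sums of 9.16 to 12.1 in fibrotic livers and 0.630 to 0.832 in normal livers. Macrophage markers had 2 of 11 higher, a share near the 14.7% of all genes, with sums of 22.4 to 27.3 in fibrotic livers and 14.6 to 19.2 in normal livers. Krt19 stood in both the portal and the cholangiocyte list, and Spp1 in both the cholangiocyte and the matricellular list. The part of these cell types in the results of the set was not tested.

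The counts of the other marker lists, against 14.7% of all genes higher and 7.62% lower, are too small to be read as a result. Endothelial markers had 0 of 6 called, although Kdr (-0.75, adjusted p = 0.0575 in limma) was called lower in 11 of 35 other settings, with sums of 9.13 to 12.5 in fibrotic livers and 13.5 to 14.7 in normal livers, and Cd34 was not above background on any array. Markers of platelets, which carry thrombospondin 1, had 1 of 5 higher, Pf4, whose call was lost in 18 of 35 other settings, with sums of 1.27 to 2.44 in fibrotic livers and 1.24 to 1.43 in normal livers, and Gp5 was dim on every array. T, B and NK cell markers had 0 of 7 higher and 1 lower, with sums of 1.32 to 2.12 in fibrotic livers and 1.16 to 1.68 in normal livers, and Klrb1 was dim on every array.

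The genes whose 6 array values were most like the mean of the set's 6 tested genes were Sting1 (Pearson r = 0.999), Rad51ap1 (0.998) and Abr (0.997), out of 10858 genes compared. These correlations over 6 arrays share the split between fibrotic and normal livers and are given as a description. The standardized mean of the set was 0.60, 1.03 and 0.26 in fibrotic livers, against -0.52, -0.55 and -0.82 in normal livers.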

How the data were processed

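The authors deposited linear spot intensities from Agilent Feature Extraction 11.5.1.1, with background subtracted and surrogates for low values, per the file headers. The same deposited files mark spots as well above background, non-uniform or population outliers, and the last 2 are the marked spots. Each array held 58717 spots other than controls. Accessions, matched to RefSeq (GRCr8), named 18355 of 30367 probes. Log2 processed signals minus each array's 75th percentile were averaged over the spots of a probe and compared with limma 3.58.1 (lmFit and eBayes, R 4.3.3), and p-values were adjusted over all tested probes by the Benjamini-Hochberg method. Above background meant at least 0.5 of a probe's spots. The code was tested on simulated data. For genes with several probes, the highest mean stood for the gene in lists. The genes named are all members, and per list up to 3 called genes with the largest rise and up to 3 with the largest fall, of which some are not reported here. The members, lists and rules were chosen with earlier results of these data known. Motifs were sought in RefSeq upstream sequences. Alternatives were other scalings (quantile, median, cyclic loess, E1A spike-in probes), normexp on median signals with offset 50 (the files used here hold no mean signal), other filters, trend and robust settings, array weights, slide row and leaving out each array.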

Additional observations from a re-analysis of the deposited data

How the results depend on the processing

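No paired analysis was possible because the replicate numbers only name arrays. Of the set's probes, 4 of 5 were called with marked spots left out, and 2 of 3, both of Lamc1, when background had to be passed on all arrays. When 1 array was left out 1 to 4 were called, where fewer arrays also left fewer probes testable. With marked spots kept 5 were called, against 3 with the filter on all arrays, 2 with slide row as a term (Postn and Matn4), and 3 to 5 without 1 array. Matn4 and Postn kept their direction and call under every alternative that tested them. The sign for Fn1 turned for A_44_P681660 with cyclic loess (0.0501), and for A_64_P077570 with E1A scaling (0.13), normexp (0.17), array weights (0.14), slide row (0.45), and without fibrosis array 3 (0.0666), normal array 2 (0.00443) or normal array 3 (0.10). Among markers, Serpina1 turned with cyclic loess (0.12) and Tek with slide row (0.0961 in both versions). The cause was not tested.

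Over all probes 2526 were called, against 1605 with the filter on all arrays, 1087 with slide row as a term, and 1429 (without normal array 3) to 2832 without 1 array. With marked spots kept 3778 were called, against 5774 with the array median, 7217 with array weights, 1198 with slide row, and 1964 (without normal array 3) to 4471 without 1 array, with 2246 without normal array 2. In the lists of relatives 23 genes were called, against 41 with marked spots kept, 11 with slide row, and 13 (without fibrosis array 1) to 26 without 1 array. With marked spots kept the 41 became 23 with slide row, and 31 to 46 without 1 array. Scaling moved the split of higher and lower calls. Higher and lower calls numbered 1916 and 610 in the reported fit. Quantile normalization gave 1419 and 1148, the array median 1440 and 1676, and E1A scaling 2077 and 173. Marked spots kept, the fit gave 2439 and 1339, quantile normalization 1905 and 1714, the array median 1890 and 3884, and E1A scaling 2609 and 373. For the same 4 scalings in that order, the median over all probes was -0.01, -0.20, -0.38 and 0.27 with marked spots left out, and -0.10, -0.14, -0.45 and 0.17 with them kept. Signal over background limits Tnc, Thbs1 and the normal arrays of Matn4 and Postn.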
